A study of Myotis pilosus with 4 samples.

Results

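A tag is one distinct small RNA sequence together with the number of reads that carried it. The tags described here were found in the library from hibernating white adipose tissue (WAT) and in no other library. They were chosen on their read counts, as tags of 18 to 26 nt with 10 or more and fewer than 1000 reads in hibernating WAT and 0 reads in the other 3 libraries. The rule took 4023 of the 1160810 tags of that library, and the 4 libraries together held 2315110 different tags.

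The bats were adult Myotis ricketti, given in the labels as Myotis pilosus, and the tissues were whole brain and white adipose tissue from inside the abdomen. Each library was made from RNA of 3 bats mixed in equal amounts, so a library has no spread between animals. Brain and WAT of a state came from the same 3 bats, so that HA shares its bats and season with HB, and AA with AB. The 4 groups, with 1 library each, were hibernating brain (HB), active brain (AB), hibernating WAT (HA) and active WAT (AA); the labels call the active state aroused. Active bats were captured in October and hibernating bats in the following March at the same place, so that state and season cannot be told apart. Some of the members had letters that resembled rRNA of bacteria or of another eukaryote, and how many came from bats was not tested. The depth was 11542470 reads in HA, 11437337 in AA, 12159756 in HB and 10007650 in AB. With 1 library per condition no test between conditions was possible, and all values below describe these libraries.

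Small RNA libraries hold several kinds of molecule. Dicer cuts microRNAs (miRNAs) from hairpins at nearly fixed positions, so a miRNA appears as a stack of tags with a common 5′ end, often a uridine, and with ends that vary by trimming or by added A and U. Ribosomal RNA (rRNA), transfer RNA (tRNA) and other long RNAs break at many positions and give staggered, overlapping tags. A rare tag can also be a copying or reading error of an abundant one. A tag that occurs in 1 library only can therefore be a variant of an RNA that is present in all of them.

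The sequences below are examples whose letters could be recognised, and most members are of other kinds. They come from the 28 members of the largest start group, from the 28 members with letters of a listed miRNA, and from the 350 members that are 1 substitution from an abundant tag, of which only the 3 printed pairs are named. The overlap chains that held 65.2% of the members are described further on without letters, because the organism they came from was not determined. All sequences are written as DNA from the tag files, with T for U. The first set is the largest group of members with the same first 18 nt. Its letters are those of miR-122-5p, known as the dominant miRNA of liver cells, which was not among the 196 miRNAs listed by the study and was recognised from its letters. The most read tag of the group is first, with its seed (bases 2 to 8) in capitals, and the capitals in the members run from the first base at which they leave or pass it.
Most read tag of the start: tGGAGTGTgacaatggtgtttga
Member with 289 reads: tggagtgtgacaatggtgtttAA
Member with 147 reads: tggagtgtgacaatggtgtttAT
Member with 114 reads: tggagtgtgacaatggtgtttgTA
Member with 69 reads: tggagtgtgacaatggtgtAA
Member with 68 reads: tggagtgtgacaatggtgtttgaTT

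The next set shows members built on 2 miRNAs of the study's list, each below the listed mature sequence, with the same use of capitals. miR-10-5p held the most read member of that kind, and miR-199-3p, an miRNA known from mesenchymal cells, had the most such members. The miR-199-3p members were chosen after their values were seen.
miR-10-5p: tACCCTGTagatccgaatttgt
Member with 51 reads: taccctgtagatccgaatATTGT
miR-199-3p: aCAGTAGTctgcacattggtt
Member with 33 reads: acagtagtctgcacattggttATTT
Member with 22 reads: acagtagtctgcacattggttTTAT
Member with 20 reads: acagtagtctgcacattggtATTT
Member with 19 reads: acagtagtctgcacattggttAATT

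The last set shows 3 members that differed by 1 base from a tag with at least 10 times the reads, with that base in capitals. These pairs were chosen after their values were seen because their letters could be recognised, as a stretch of mammalian large-subunit rRNA and as the 5′ ends of tRNA-Gly and tRNA-Gln. Counted from 1 at the 5′ end, with the abundant tag's base first, the differences were G1C, T16C and T4C. Whether a member was a copy of the abundant tag or came from a separate RNA was not tested.
rRNA, abundant tag: Gcggcgactctggacgcgagccgg
rRNA, member: Ccggcgactctggacgcgagccgg
tRNA-Gly, abundant tag: gcattggtggttcagTggtagaatt
tRNA-Gly, member: gcattggtggttcagCggtagaatt
tRNA-Gln, abundant tag: ggtTccatggtgtaatggttag
tRNA-Gln, member: ggtCccatggtgtaatggttag

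HA held far more tags of its own than any other library. Of its 37377 tags in the range of length and reads, 10.8% were absent from the other 3 libraries. The same rule took 237 of 25244 tags in AA (0.939%), 107 of 28662 in HB (0.373%) and 36 of 20874 in AB (0.172%). HA thus had 17 times the number of AA, 37.6 times that of HB and 112 times that of AB, and 10.6 times the 380 of these 3 libraries together. When each library was thinned to the 10007650 reads of the shallowest, 3454 tags were found only in HA, 189 only in AA, 70 only in HB and 47 only in AB. HA also had the most distinct tags of any length and read count, 1160810 against 536068 in AA, 629437 in HB and 411552 in AB. Tags with a single read numbered 798850 in HA, 359142 in AA, 464435 in HB and 302922 in AB. Tags specific to AA, HB or AB had to be absent from the many distinct tags of HA, whereas the members did not.

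**Figure D1:**
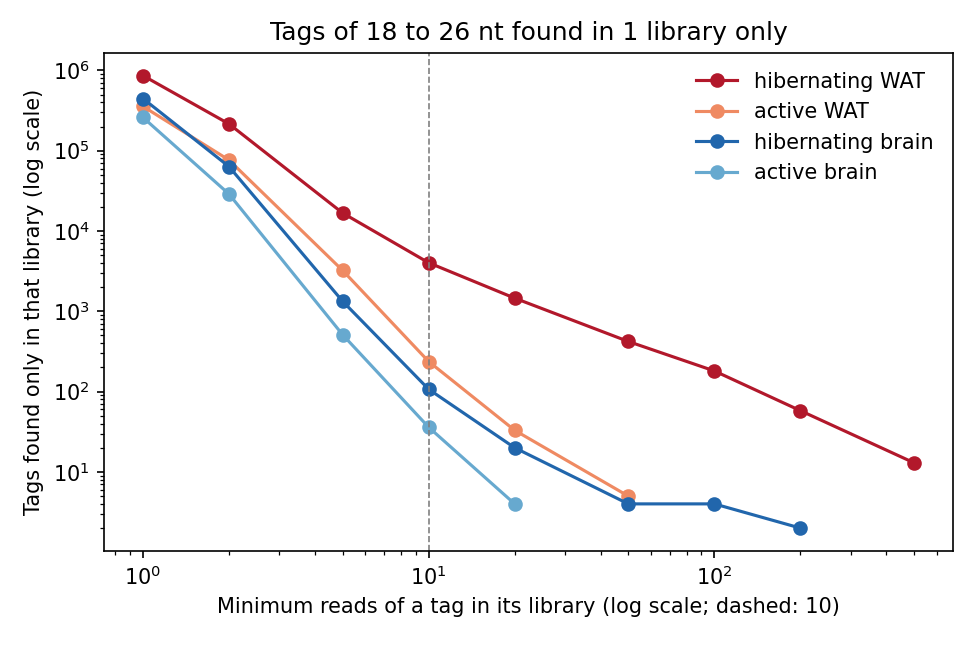
Number of tags of 18 to 26 nt found in 1 library only (y, log scale) against the minimum number of reads a tag must have (x, log scale) for each of the 4 libraries; the dashed line marks the minimum of 10 used here, and points at 0 tags are left out. The line of hibernating WAT lies above the others at each minimum, with 16731 tags at 5 reads and 181 at 100 reads.

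HA had the most such tags at lower and higher minimums of reads too, by a factor that depended on the minimum. With a minimum of 2 reads 215345 tags were found only in HA and 76412 only in AA, and with a minimum of 5 reads 16731 and 3223. With a minimum of 20 reads 1459 tags were found only in HA, 33 only in AA, 20 only in HB and 4 only in AB. With a minimum of 100 reads the numbers were 181, 0, 4 and 0, and 13 tags of HA passed a minimum of 500 reads. Most members were nevertheless low. Their median was 15 reads with quartiles of 12 and 25, and the median was 12 in AA, 13 in HB and 13.5 in AB. The most read tag specific to a library had 966 reads in HA, 97 in AA, 343 in HB and 32 in AB.

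Together the members held 119528 reads, 1.04% of the HA library (exact Clopper-Pearson 95% interval 1.03 to 1.04%). The tags specific to AA held 0.0321% of its reads (0.0311 to 0.0331%), those of HB 0.0192% (0.0185 to 0.0200%) and those of AB 0.00511% (0.00467 to 0.00557%). These intervals treat the reads as independent and the tags as chosen beforehand. Neither holds, because reads copied from 1 molecule are not independent and the tags were chosen on these counts. The intervals describe counting error at most, with less than its full size, and no spread between animals. At the lower limit of the rule 561 members had exactly 10 reads, and 789 further tags with 9 reads were absent elsewhere but not taken. At the upper limit 1 member had 950 or more reads, and 8 tags of HA absent elsewhere had 1000 or more. A count of 0 in a library allows up to 3 reads, and 1331 tags of HA missed the rule through a single read elsewhere.

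The members were longer than the tags specific to the other libraries. Their mean length was 22.4 nt (SD 2.37 over tags) and their median 23 nt, and 50.7% of them had 23 nt or more. The mean was 20.6 nt in AA, 20.7 nt in HB and 21.0 nt in AB, with 13.5%, 20.6% and 19.4% of tags at 23 nt or more. HA tags in the same range that occurred elsewhere too stood between them, with a mean of 21.8 nt and 37.9% at 23 nt or more. The commonest member length was 23 nt with 551 tags, followed by 24 nt with 546 and 25 nt with 527, whereas 18 nt had 243.

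**Figure D2:**
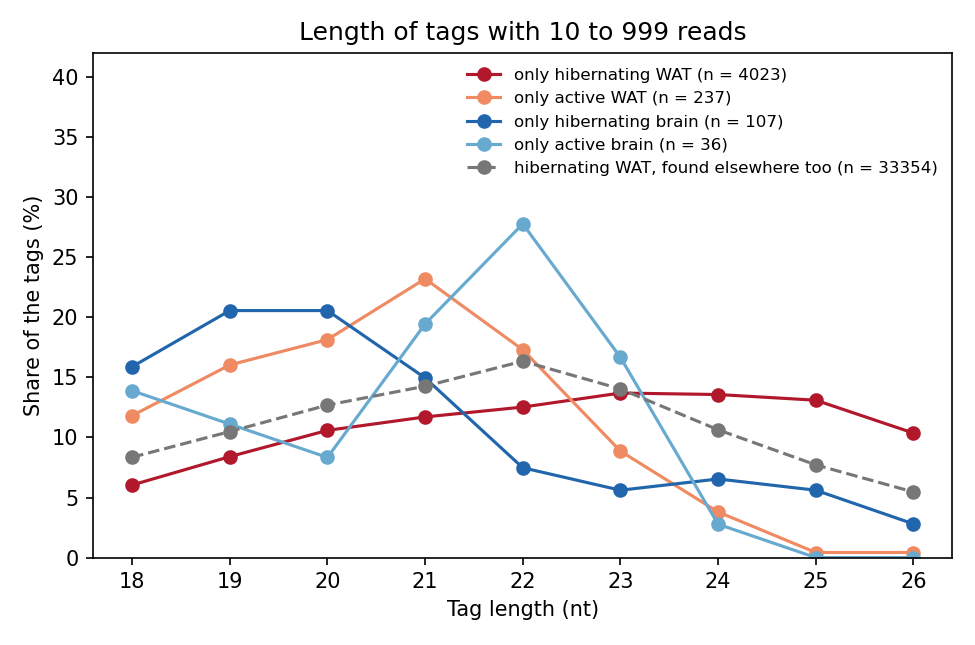
Share of tags (y, %) at each length (x, nt) among tags with 10 or more and fewer than 1000 reads, for the tags found only in each library and, dashed, the hibernating WAT tags found elsewhere too. The 4023 members are spread over all lengths, with 243 tags at 18 nt, 551 at 23 nt and 417 at 26 nt, while the tags specific to active WAT gather at shorter lengths.

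G was the commonest base of the members. Over all bases they held 33.8% G, 26.9% A and 19.4% C, the rest being T, a G+C content of 53.1%, against 52.2% in HA tags found elsewhere too, 50.9% in the tags specific to AA, 45.1% in HB and 55.5% in AB. The sets differed more at the first base. It was G in 1860 members (46.2%), A in 1148 (28.5%), C in 529 (13.1%) and T in 486 (12.1%). Among HA tags found elsewhere too, G began 29.5% and T 23.6%. Weighted by reads, G began 52.9% of the members.

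The tags specific to the other libraries did not begin with G as often. A was the commonest first base in AA (48.5%), HB (33.6%) and AB (41.7%), and G began 30.0% of them in AA, 29% in HB and 27.8% in AB. T, the first base that many miRNAs have, began 11.4% of the specific tags in AA, 26.2% in HB and 22.2% in AB. It began 29.9%, 31.3% and 33.6% of the tags found elsewhere too in AA, HB and AB. The share of G in the members lay between 42.1% and 48.5% at each length from 18 to 26 nt. A pair of G at the start was present in 721 members (17.9%), in 9.85% of HA tags found elsewhere too, and in 6.75%, 9.35% and 0% of the tags specific to AA, HB and AB.

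**Figure D3:**
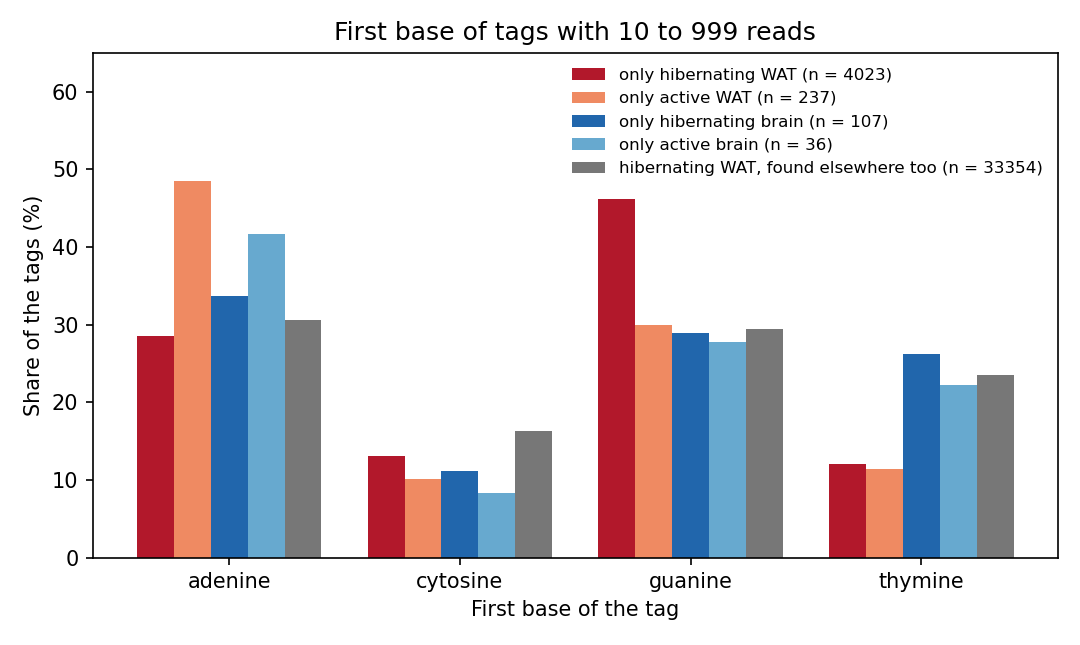
Share of tags (y, %) that begin with each base (x) for the tags found only in each library and for the hibernating WAT tags found elsewhere too. Guanine begins 46.2% of the members and 27.8 to 30.0% of the tags in the other 4 sets.

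The last base of the members was nearly even, between 24.2% and 25.5% for each of the 4 bases. A closed 28.9% of HA tags found elsewhere too. It closed 35.0% of the tags specific to AA, 53.3% in HB and 30.6% in AB, where T closed 38.9%. The letters CCA, which are added to the 3′ end of mature tRNA, closed 55 members (1.37%) and 2.34% of the HA tags found elsewhere too.

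Members shared starts, ends and overlaps with each other more often than the tags specific to the other libraries did, in sets of very unequal size. Of the members, 2273 (56.5%, with 74.1% of the member reads) shared their first 18 nt with another member, against 24.9% in AA, 29% in HB and 30.6% in AB. Within HA, the larger set of tags found elsewhere too shared a start with another of that set more often (85.1%), so shared starts were not particular to the members. A shared end of 18 nt was found for 47.7% of the members and for 7.17%, 5.61% and 5.56% of the tags specific to AA, HB and AB. Tags joined where the end of one matched the start of the next over 15 nt or more formed chains. Chains of 3 or more held 2625 members (65.2%, with 80.4% of the member reads), 21.9% of the tags in AA, 13.1% in HB and 0% in AB. Members that share a start or a chain can come from the same RNA, so the 4023 tags cannot be counted as separate RNAs. They formed 1466 chains, 908 of them single tags and 61 of 10 or more tags.

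Most members also lay in a longer tag of their library. Of the members, 3077 (76.5%) were contained in a tag of 27 to 30 nt, against 20.7% of the tags in AA, 21.5% in HB and 8.33% in AB. HA tags found elsewhere too were contained in such tags nearly as often (73.5%), so that this share was not particular to the members within their library. Of the members inside a longer tag, 65.1% stood at the start of one, 72.8% in the middle and 56.0% at the end, and a member could do so in more than 1 tag. The longer tags had 0.667 times the reads of the member at the median, against 0.158, 0.0909 and 0.0714 times in AA, HB and AB. The share contained in a longer tag was 69.1% at 18 nt and 95.2% at 26 nt. Longer tags that were themselves absent elsewhere held 64.5% of the members.

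For most members a stretch of the letters occurred elsewhere, for some of them only in tags with a single read. A stretch of 18 nt of the member occurred in a tag of another library for 75.8% of the members, and for 91.6%, 89.7% and 80.6% of the tags specific to AA, HB and AB. When only tags with 2 or more reads were searched elsewhere, the share of the members was 58.6%. The first 18 nt of the member began a tag elsewhere in 50.1%. For 21.1% of the members another library held the tag without its last base, against 39.2%, 53.3% and 55.6% in AA, HB and AB. In contrast, 727 members (18.1%) shared not even 16 nt with another library, against 11 tags (4.64%) in AA, 5 (4.67%) in HB and 4 (11.1%) in AB. The tags specific to AA, HB and AB were searched for in libraries that included HA, which held the most distinct tags. The members were searched for without it, so the shares of the sets are not like for like. These 727 had 20645 reads with a median of 16, a mean length of 21.4 nt and a G+C content of 53.0%, and 64.2% of them lay in a tag of 27 to 30 nt. The most read of them, of 19 nt, had 463 reads, and all tags with its start had 495 reads in HA.

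**Figure D4:**
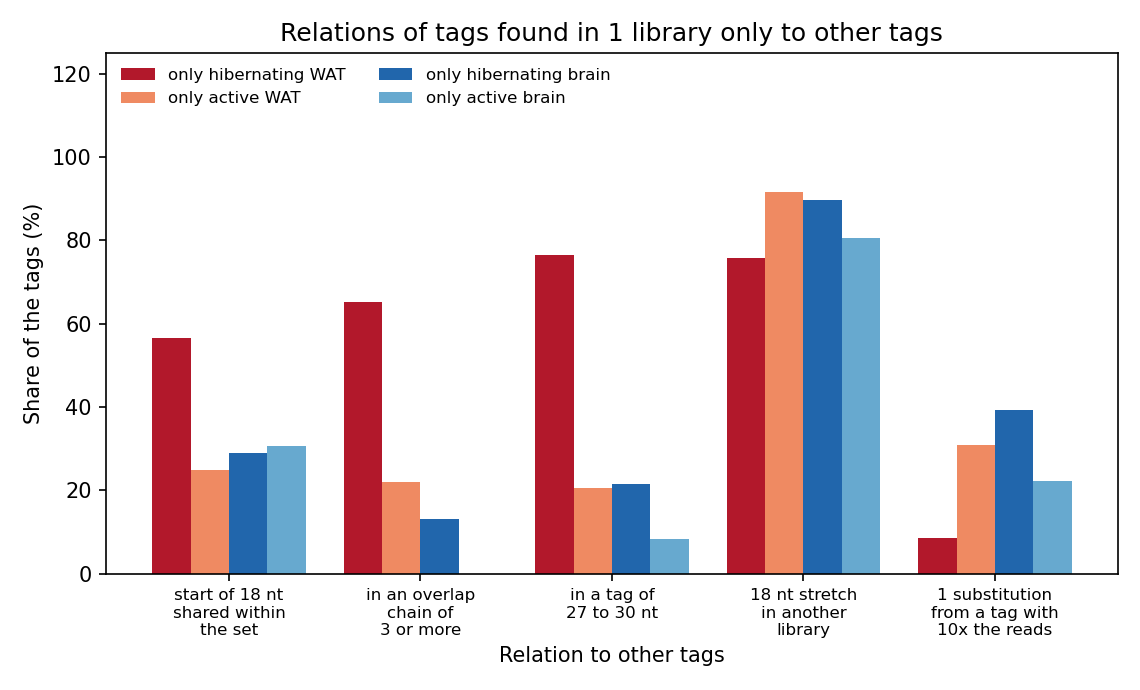
Share of the tags found only in each library (y, %) that stand in each relation to other tags (x). The members have the tallest bars for shared starts (56.5%), overlap chains (65.2%) and longer tags (76.5%), and the lowest for stretches found elsewhere (75.8%) and for single substitutions (8.70%). The bars for stretches are not like for like. Those of the other libraries are searched for in hibernating WAT, which has the most distinct tags, and those of the members are not.

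Members 1 substitution away from an abundant tag were a small part of the set. There were 350 members (8.70%) 1 substitution away from an HA tag with 10 or more times the reads, against 24.7% of HA tags found elsewhere too and 30.8%, 39.3% and 22.2% of the tags specific to AA, HB and AB. The base that differed was the first in 16 members, the last in 33, the one before the last in 26 and an inner one in 275 (78.6%). The abundant neighbour occurred in all 4 libraries for 219 of them (62.6%). For the printed rRNA pair the abundant tag had 34640 reads in HA, 2843 in AA, 1695 in HB and 743 in AB, and the member had 10. The abundant tRNA-Gly tag had 8147, 209, 26 and 24 reads in the same order, and the member 20. The abundant tRNA-Gln tag had 7020, 688, 26 and 48 reads, and the member 77. In all 3 pairs HA had the most reads of the abundant tag too.

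The members had 2493 different starts of 18 nt. Of the 743 starts that 2 or more members had in common, 376 (50.6%) had 0 reads in the other libraries over all tags, and 101 starts had 5 or more members. Other starts occurred in every library: 140 had 10 or more reads in each of the 4 libraries. In contrast, 1232 of the 2493 starts had 0 reads elsewhere. All tags with any of the 2493 starts held 19.3% of the reads of HA, 22.4% of AA, 6.99% of HB and 9.79% of AB. The start of miR-199-3p alone had 338703 of these 2227664 reads in HA and 810511 of 2565487 in AA. The pooled shares therefore do not rank HA against AA for the starts in general. The largest group, with the letters of miR-122-5p, had 28 members of 19 to 26 nt with 10 to 289 reads each. All tags with that start had 31351 reads in HA, 416 in AA, 176 in HB and 181 in AB, which is 2716, 36.4, 14.5 and 18.1 reads per 1000000 reads of the library (RPM). The most read of them, printed above, had 8798 reads in HA, 97 in AA, 43 in HB and 17 in AB, and so occurred in all 4 libraries. Of the 28 members, 20 had only A and T after the base at which they left it, and 16 were 1 substitution away from a tag with 10 or more times the reads. The part of liver RNA in the HA library was not tested.

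The second largest group had 15 members, and all tags with its start had 1675 reads in HA, 18 in AA and 0 in both brain libraries. The third had 12 members and 11117 reads in HA, 29 in AA, 44 in HB and 0 in AB. The HA totals of these 2 groups include the members' own reads, which were 1002 and 592. The rule gave the members 0 reads elsewhere, so the excess in HA was in part set by it. The letters of both groups are not printed, because the organism they came from was not determined.

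Members with letters of a listed miRNA were rare, and the 28 members with the start of miR-122-5p, which is not listed, are not counted among them. Bases 2 to 17 of a listed miRNA were contained in 28 members (0.696%), in 9.81% of HA tags found elsewhere too and in 8.86%, 8.41% and 0% of the tags specific to AA, HB and AB. miR-199-3p accounted for 11 members with 186 reads, and 9 of them had its first 18 nt and only A and T past the point where they left it, as printed above. Its mature tag had 156158 reads in HA, 458628 in AA, 6372 in HB and 8024 in AB, so these members belong to an miRNA that was more abundant in AA. miR-10-5p had 5 members with 103 reads, and its mature tag had 1655 reads in HA, 1097 in AA, 15 in HB and 52 in AB. miR-1-3p, known from muscle, had 3 members, miR-365-5p had 2, and 7 other miRNAs had 1 each.

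The largest chain of overlapping members had 157 tags with 10039 reads, 46 different starts and a span of 91 nt, which is longer than any tag. All tags that shared 18 nt with it had 24929 reads in HA, 2 in AA, 1 in HB and 1 in AB. The second chain had 82 members over 40 nt, and its tags had 2752 reads in HA, 5 in AA and 0 in the brain libraries. The third had 69 members over 46 nt, with 2586, 9, 0 and 0 reads. Each of these stretches was read from many starts. The HA totals include the members' own reads, which were 10039, 2121 and 1785 in the 3 chains. The rule gave the members 0 reads elsewhere, so the excess in HA was in part set by it. Tags that were not members were not counted apart. Their letters could not be assigned to an RNA without a genome and are not printed.

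The 5 members with the most reads are given with the totals of their starts. These totals include the members' own reads. The rule gave the members 0 reads elsewhere, so the excess in HA was in part set by it. The first, of 24 nt, had 966 reads, and all tags with its start had 2204 reads in HA and 0 in each other library. The second, of 18 nt, had 839 reads, and its start had 2764 reads in HA, 19 in AA, 8 in HB and 0 in AB. The third, of 20 nt, had 817 reads, and its start had 1043, 2, 2 and 0. The fourth, of 23 nt, had 812 reads, and its start had 5256, 3, 0 and 0. The fifth, of 20 nt, had 671 reads, and its start had 2444, 26, 1 and 1. All but the fifth lay in a tag of 27 to 30 nt. In the other libraries the most read specific tag was one of 18 nt with 97 reads in AA, one of 18 nt with 343 in HB and one of 22 nt with 32 in AB.

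Runs of 8 letters shared by many members were counted as a further description. The first run was held by 102 members and the second by 100. All tags with the first had 33575 reads in HA, 746 in AA, 503 in HB and 297 in AB, and all tags with the second had 34841, 1829, 1742 and 586. Both runs were recognised as letters of conserved stretches of bacterial small-subunit rRNA, although so few letters can also occur in other RNAs. At least 1 of the 5 commonest runs was held by 434 members (10.8%), by 1 tag specific to AA and by none in the brain libraries. Each run was held by 1.86 to 2.54% of the members and by 0 to 0.447% of HA tags found elsewhere too. Tags with any of them had 10117 RPM in HA, 853 in AA, 601 in HB and 479 in AB. The runs were chosen on the members, and the rule gave the members 0 reads elsewhere. The excess in HA was therefore in part set by the rule. The 3589 members without these runs had a first G in 45.0% and a G+C content of 53.0%. Their mean length was 22.4 nt, and 76.4% of them lay in a longer tag. These 4 values were close to those of all members, but the 3589 are most of the members, so closeness was largely set in advance. Members with other rRNA-like letters were not left out, so dependence on such letters was not tested. Shared starts, ends, chains and stretches were not recomputed without the runs. Other members, among them those of the third largest start group and the next one, had letters that resembled bacterial small- or large-subunit rRNA, and the third run and some start groups resembled rRNA of another eukaryote. These resemblances were seen by eye, without a database, and the members concerned were not counted. All tags with the start of that next group had 8671 reads in HA, 104 in AA, 1 in HB and 0 in AB, and all tags with the third run had 3401, 327, 386 and 243. RNA of other organisms in the HA library, whether from the tissue or from contamination, was not tested, so the 4023 tags cannot be taken as bat RNA. None of these letters are printed.

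**Figure D5:**
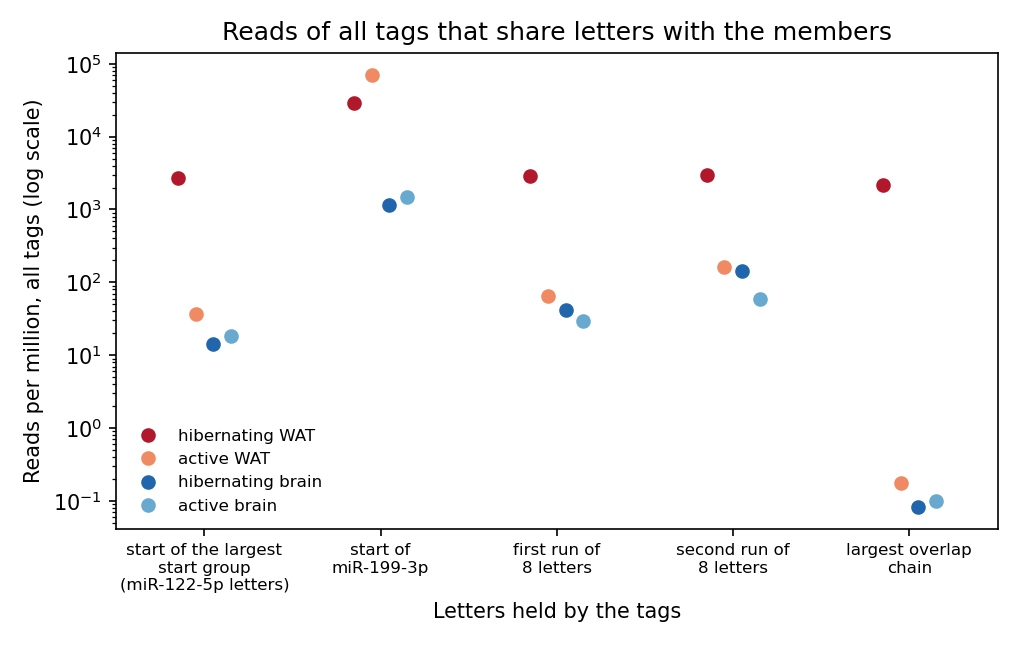
Abundance in reads per 1000000 reads of the library (RPM; y, log scale) of all tags, members or not, that hold the letters named on the x axis, with 1 point per library. Hibernating WAT stands highest for the miR-122-5p start (2716), both runs of 8 letters and the largest overlap chain (2160), whereas active WAT stands highest for the start of miR-199-3p. The letters were taken from the members, which by the rule have no reads in the other libraries. An excess in hibernating WAT is therefore in part set by the rule.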

How the data were processed

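The authors removed adapters, low quality reads, reads with unknown bases and inserts under 18 nt, and deposited for each of the 4 libraries each distinct sequence with its count of reads, without normalization or a match to a genome. Those counts were used as deposited. RNA had been gel purified at 18 to 30 nt per the labels. The members and lists were chosen with earlier results of these data known.

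Tags were compared between libraries by exact identity (Python 3.11.15, NumPy 2.4.6, SciPy 1.17.1, Matplotlib 3.10.9), without a genome, so no coordinates are given. A shared start or stretch was 18 identical nt, chains needed an overlap of 15 nt, and longer tags had 27 to 30 nt. The counting steps were tested on simulated data. Named were the 5 most read members, the 3 largest start groups and the 3 largest chains, the most read members with miRNA letters, with an abundant neighbour or with no 16 nt elsewhere, and the most read specific tag of each other library. Of the pairs with an abundant neighbour, recognisable ones were printed in place of the most read. Mature miRNA sequences came from the study's supplementary list. Tags of undetermined or microbial origin were not printed. Alternatives were other minimums of reads, lengths, definitions of absence, start, stretch and overlap, thinning to 10007650 reads (seed 1), leaving out tags 1 substitution from one with 10 times the reads, and weighting by reads.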

Additional observations from a re-analysis of the deposited data

Results flagged for a closer look

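Signal of the same kind lay outside the limits of length and reads that define the members. At 27 to 30 nt, 944 tags with 10 or more and fewer than 1000 reads were found only in hibernating WAT, with 27323 reads, against 0 in active WAT, 2 in hibernating brain and 2 in active brain. Above the upper limit, 8 tags of 18 to 26 nt with 1000 or more reads were found only in hibernating WAT. They had 1038 to 2477 reads and 12864 in all, and no tag of the other 3 libraries passed this limit while absent elsewhere.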

How the results depend on the processing

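Of 105 values under the alternatives, 45 stayed within 1.5 times the count, 0.5 nt of the mean length or the exact 95% interval of the share, and 60 moved past them; the cause was not tested. A minimum of 5 reads gave 16731 tags, which were 22.8% of those in the range, with a G+C content of 51.4%, a first T in 10.8%, a shared start in 42.6%, a place in a longer tag in 57.6%, a stretch elsewhere in 70.5% and a place in a chain in 53.4%. A minimum of 20 reads gave 1459 tags (6.89% of those in the range), a first T in 13.5%, a shared start in 58.5%, a longer tag in 80.1% and a chain in 69.0%. A minimum of 100 reads gave 181 tags (3.19%), G+C 54.8%, a shared start in 51.4%, a longer tag in 87.3%, a stretch elsewhere in 78.5% and a chain in 54.1%. With at most 1 read allowed in each other library, 15.6% of the tags in the range were taken, 78.2% of them in a longer tag and 83.3% with a stretch elsewhere. With absence required from active WAT alone the share taken was 15.1%, with a shared start in 53.4%, a longer tag in 77.9% and a stretch elsewhere in 79.0%. With absence required from the brain libraries alone 6956 tags (18.6%) were taken, with a first T in 13.8%, a shared start in 60.9%, a longer tag in 74.9%, a stretch elsewhere in 63.6% and a chain in 68.7%.

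Lengths of 18 to 30 nt gave a share of 12.16%, a mean length of 23.5 nt, a stretch elsewhere in 78.9% and a chain in 68.8%. Lengths of 20 to 24 nt gave 2498 tags (9.92%), a first T in 13.3%, a shared start in 51.9%, a longer tag in 72.0%, a stretch elsewhere in 74.3% and a chain in 59.6%. Thinning moved the share taken to 10.3% and no other of the 9 results. Without tags 1 substitution from one with 10 times the reads the share taken was 12.8%, with a longer tag in 78.6% and a chain in 67.3%. Weighted by reads, the share taken was 4.84%, G+C 53.7%, a shared start 74.1%, a longer tag 80.7% and a chain 80.4%. A longer tag with 2 or more reads held 62.0% of the members and any longer tag of the library 97.1%. A stretch of 16 nt was found elsewhere for 81.9%, and one of 18 nt in tags with 2 or more reads for 58.6%. With an overlap of 12 nt 68.1% of the members were in chains.

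No paired analysis was possible because each condition has 1 library, pooled over the bats that brain and WAT of a state share, and no result comes from a test. Depth limits absence: a count of 0 allows up to 3 reads, and tags with the fewest reads are the least certain to be absent elsewhere. Bats, season and library preparation cannot be told apart from state.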
